A study of Mus musculus with 6 samples.

Results

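Disease-associated microglia effector genes were followed between hippocampal microglia with few and with many lipid droplets. The set was given by name and held 9 genes, Cst7, Itgax, Spp1, Gpnmb, Lgals3, Igf1, Timp2, Cd52 and Ank. All 9 were found by gene symbol among the 14148 genes of the deposited table, and 8 of them passed the filter on low values that left 11624 genes to test. Both groups came from male C57BL/6 mice aged 18 months, with no other genotype or treatment named in the labels. Live cells positive for CD11b with low CD45, a usual microglial gate, were stained with BODIPY, a dye for neutral lipid, and separated by its brightness into cells with few lipid droplets (LD-low) and cells with many (LD-high). Each group had 3 libraries, each library drew on the pooled hippocampi of 3 mice, and about 10000 cells were sorted for each. No young, diseased or unsorted group was analysed here. The labels do not say whether the pools held different mice, so p-values reflect only how far these 6 libraries varied, and that variation may be technical.

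Microglia near amyloid plaques, dying neurons or damaged myelin take on a state named disease-associated, in which surface receptors such as Trem2 sense lipids and debris and a set of effector genes is switched on. The effector products include protease inhibitors, growth factors and matrix proteins that are released, and surface or membrane proteins that bind matrix, complement or phosphate compounds. The same genes are known from aged brain and from lipid-laden macrophages elsewhere in the body.

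In LD-high microglia these effector genes did not move as a block: 1 rose, 1 fell while 6 missed the threshold. Timp2, an inhibitor of matrix metalloproteinases, rose by 0.30 ± 0.08 on the log2 scale (SE, n = 3 libraries in each group), and Cd52, a short surface glycoprotein anchored by lipid, fell by 0.41 ± 0.09. The 2 calls, in limma with Benjamini-Hochberg adjustment and a threshold of 0.05, stood beside 3.36% of all tested genes that were called, 1.53% higher and 1.82% lower. On reads recovered from the table, edgeR called 2 members and 3.24% of all genes, and DESeq2 called 3 members, Lgals3 being the addition, and 6.27% of all genes. A fit with the replicate number as a term called 9.38% of all genes, and its members are given with the other settings. Without limma's trend of variance on level, 15 genes and 0 members were called, and the genes reported below by name as having risen or fallen lost their calls too (adjusted p 0.104 to 0.211). Libraries of the 2 groups did not overlap for Timp2, which was higher, and for Cd52, Lgals3 and Igf1, which were lower in LD-high. Over all tested genes, 12.7% were higher and 11.7% lower without overlap. The median log2 change was -0.34 over the 8 tested members and -0.01 over all tested genes, but Igf1 passed the filter only through the LD-low libraries, where it was higher, so neither this median nor the count of genes without overlap is free of the filter. In sorted bulk samples, fewer cells of a kind and less RNA per cell cannot be told apart.

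**Figure D1:**
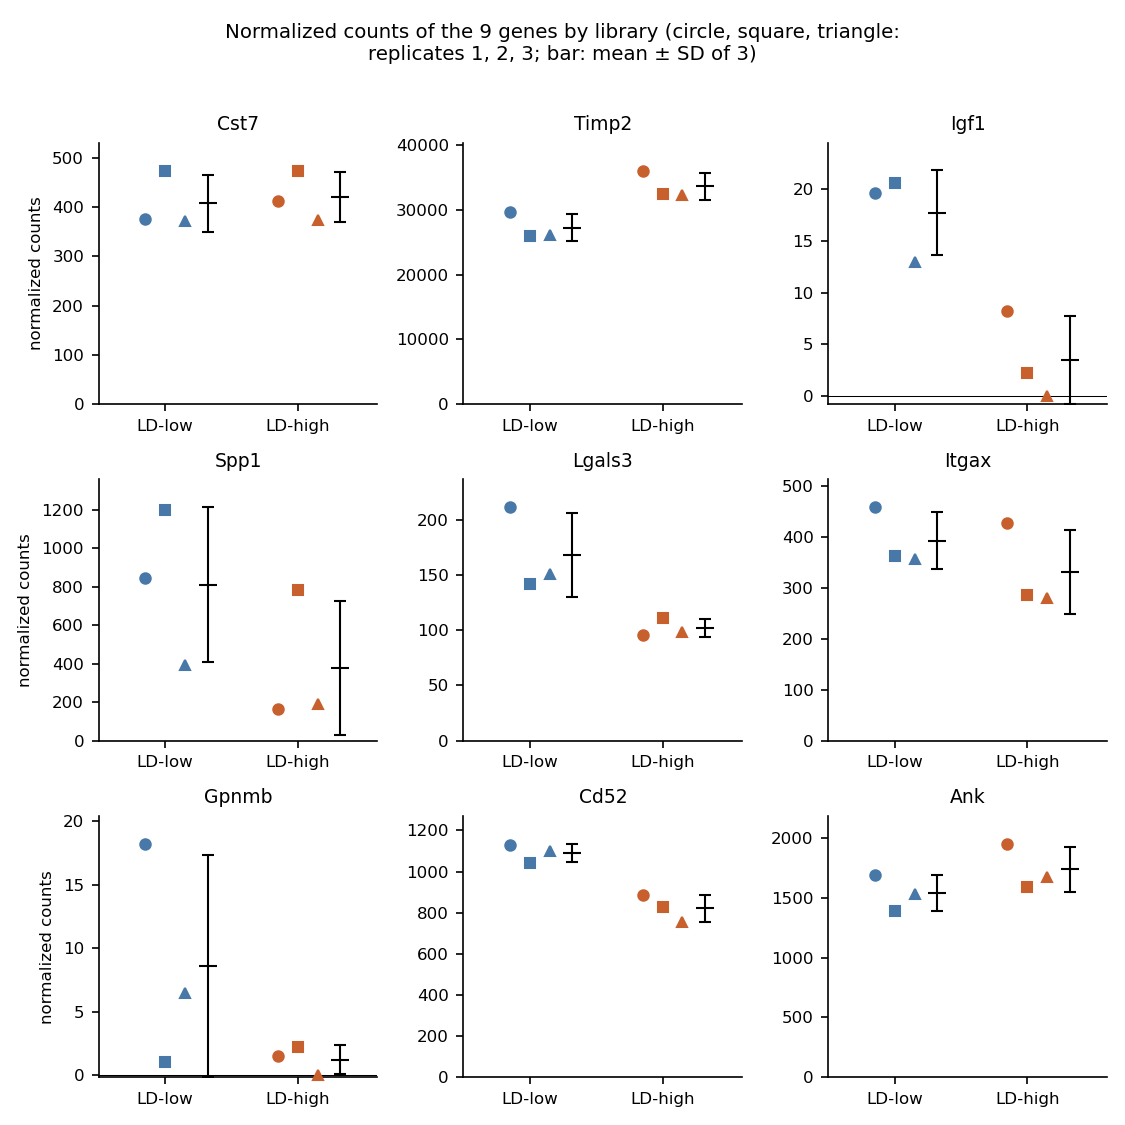
Normalized counts (y axis, linear) of the 9 genes in the LD-low and LD-high libraries (x axis), 1 point per library, with the mean ± SD of 3 libraries beside the points. The 3 LD-high libraries lie above all LD-low libraries for Timp2 and below them for Cd52, Lgals3 and Igf1, and the groups overlap for the other genes.

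The promoters of 4 members are shown to set side by side genes with unlike values: Timp2, which rose, Cst7, whose groups overlapped, and Lgals3 and Igf1. Lgals3 and Igf1 did not pass in the main fit. They were lower in every LD-high library than in any LD-low library, as were 11.7% of all tested genes. Igf1 passed the filter only through the LD-low libraries, so its lack of overlap is not free of the filter. The 4 were picked with these values known, and Spp1, whose groups also overlapped, is not shown. The windows are RefSeq's for GRCm38.p6, not the build of the counts, and run from 250 bases before to 50 bases after the start of transcription. They lie at chr11:118355362-118355661 on the minus strand (Timp2), chr14:47373610-47373909 (Lgals3), chr10:87860861-87861160 (Igf1) and chr2:150570165-150570464 (Cst7), the last 3 on the plus strand. Capitals mark TGANTCA, a loose form of the binding motif of AP-1 factors with any base at its centre, on either strand. The usual AP-1 site has C or G at that centre, while the marked stretches have A in Igf1 and T in Cst7.
Timp2: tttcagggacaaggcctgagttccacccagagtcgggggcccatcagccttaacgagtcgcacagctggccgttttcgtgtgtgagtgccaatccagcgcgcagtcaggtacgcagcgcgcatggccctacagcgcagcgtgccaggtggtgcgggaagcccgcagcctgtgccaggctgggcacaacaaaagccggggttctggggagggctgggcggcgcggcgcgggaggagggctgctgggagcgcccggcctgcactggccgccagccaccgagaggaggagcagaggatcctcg
Lgals3: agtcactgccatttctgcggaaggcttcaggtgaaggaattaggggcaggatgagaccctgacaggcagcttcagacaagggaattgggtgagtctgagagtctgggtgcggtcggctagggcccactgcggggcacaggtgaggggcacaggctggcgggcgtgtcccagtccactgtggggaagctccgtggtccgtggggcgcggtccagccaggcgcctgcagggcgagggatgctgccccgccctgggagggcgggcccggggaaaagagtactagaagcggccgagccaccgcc
Igf1: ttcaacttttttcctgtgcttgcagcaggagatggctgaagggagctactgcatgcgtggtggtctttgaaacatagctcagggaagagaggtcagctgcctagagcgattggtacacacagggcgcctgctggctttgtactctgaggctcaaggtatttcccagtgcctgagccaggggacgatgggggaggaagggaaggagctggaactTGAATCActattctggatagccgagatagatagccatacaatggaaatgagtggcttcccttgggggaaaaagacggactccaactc
Cst7: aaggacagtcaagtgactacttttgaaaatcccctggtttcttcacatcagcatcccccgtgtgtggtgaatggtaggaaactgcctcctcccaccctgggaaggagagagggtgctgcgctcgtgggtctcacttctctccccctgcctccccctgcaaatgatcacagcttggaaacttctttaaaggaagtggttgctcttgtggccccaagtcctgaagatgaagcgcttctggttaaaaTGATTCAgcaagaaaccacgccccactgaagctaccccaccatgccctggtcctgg

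RefSeq's table held windows for 8 of the 9 members, all but Cd52, with 2 starts for Spp1. A motif was counted on both strands for 6 patterns chosen with these results known. TGANTCA lay in the windows of 4 members, Cst7, Itgax, Gpnmb and Igf1, and in 7.81% of all 32851 windows of the same length. It began 6 bases before the start in Cst7, 37 before it in Igf1 and 56 before it in Itgax, and 8 bases after the start in Gpnmb. The hexamer GAGGAA, the core bound by the myeloid factor PU.1, lay in windows of Spp1, Igf1 and Ank and in 28.3% of all windows. TATAAA lay in 1 window of Spp1 and in 13.6% of all windows, and 0 of the 9 member windows held CACGTG (7.15% of all), CATGTG (14.2%) or GTAAACA (3.65%), where no match says only that these letters are absent there. CACGTG and CATGTG differ at 1 base and cannot match the same letters. The windows also fell apart by CpG dinucleotides, with 53 in Ank, 25 in Timp2 and 18 in Lgals3, against 3 to 9 in the other windows and a median of 7 over all windows. Timp2 and Lgals3, both rich in CpG, lay on opposite sides of 0. These matches describe the letters and were not tied to binding in these cells.

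Levels of different genes were compared as normalized counts per kilobase of the longest coding transcript. Timp2 was the highest of the 9 in all 6 libraries, with 7348 ± 576 in LD-low and 9065 ± 572 in LD-high (SD, n = 3 each), and Cd52 came next in all 6, with 2121 ± 86 and 1599 ± 129. Spp1, Ank and Cst7 shared the next 3 places, with LD-low means of 538, 439 and 413 per kilobase, and their order changed from library to library within the spread. Lgals3 and Itgax held places 6 and 7 in every library, with LD-low means of 118 and 97.1 per kilobase and overlapping values. Igf1 and Gpnmb held the last 2 places, with LD-low means of 2.49 and 2.27 per kilobase. By mean normalized count, not per length, Timp2 stood above 99.4% of the listed genes and Gpnmb above 13.6%.

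Of the 2 protease inhibitors of the set, Timp2 passed the threshold and Cst7 did not, and the difference between them was not tested. Timp2 (chromosome 11, 118162383 to 118217054, minus strand, mm9) had 29716, 25956 and 26085 normalized counts in LD-low replicates 1, 2 and 3, and 36068, 32445 and 32351 in LD-high replicates 1, 2 and 3. Every LD-high library was above every LD-low library, and replicate 1 was the highest in both groups. On the log2 scale Timp2 rose by 0.30 (95% interval 0.14 to 0.47) with an adjusted p of 0.0429. Choroid plexus markers were also higher in LD-high, at 366 to 1814 normalized counts in LD-low and 1725 to 5639 in LD-high, and their part in this result was not tested. Leaving out 1 library kept the direction (0.25 to 0.37 on the log2 scale), but the adjusted p was above the threshold without LD-low replicate 2 (0.191) or 3 (0.154) and without LD-high replicate 1 (0.134), 2 (0.0841) or 3 (0.0960). Cst7, which encodes cystatin F, an inhibitor of lysosomal cysteine proteases (chromosome 2, 150396151 to 150404680, plus strand), had 377, 474 and 372 normalized counts in LD-low and 413, 474 and 374 in LD-high replicates 1, 2 and 3. The groups overlapped throughout, and replicate 2 was the highest in both. Its log2 change was 0.05 ± 0.14 (adjusted p 0.894), with a 95% interval from -0.24 to 0.34.

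The genes that these inhibitors act on gave 1 call. Mmp14, the membrane-type metalloproteinase that Timp2 can inhibit or bridge to pro-Mmp2, fell by 0.43 ± 0.08 on the log2 scale, with 2000, 1780 and 1845 normalized counts in LD-low and 1298, 1428 and 1444 in LD-high (adjusted p 0.0147). Mmp14 thus moved opposite to Timp2 in these libraries. Mmp14 missed the threshold in 1 of the 6 fits that left out a library, the one without LD-low replicate 3 (adjusted p 0.0645). Mmp2, the gelatinase itself, named after its values were seen, had 1591 ± 102.5 and 1543 ± 47.7 normalized counts (SD, n = 3 each) and did not pass. On the list of Timp and metalloproteinase genes, 0 of 8 tested genes rose, 1 fell and 7 did not pass (median -0.01). For Cst7, the cathepsin C gene Ctsc, whose product cystatin F can inhibit, had 27966 ± 3982 and 28112 ± 1245 normalized counts (adjusted p 0.947). Of 7 tested cystatin and cysteine protease genes, 0 passed in limma, 2 had an unadjusted p under 0.05, and edgeR called 0 and DESeq2 1. The smallest p in that list belonged to Cstb, the cytosolic cystatin B, with 622 ± 8.17 and 770.4 ± 69.1 normalized counts and a log2 change of 0.30 ± 0.10 (adjusted p 0.110).

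The 3 released ligands all had lower means in LD-high, and none passed in limma without a term for the replicate number. Igf1, insulin-like growth factor 1 (chromosome 10, 87321010 to 87399792, plus strand), was barely present, with 19.6, 20.6 and 13 normalized counts in LD-low and 8.19, 2.24 and 0 in LD-high. These stand for 28, 19 and 14 reads against 11, 2 and 0, where a count of 0 allows up to 3 reads, or 5.01 normalized counts in that library. Every LD-high library was below every LD-low library, but Igf1 passed the filter on low values only through the LD-low libraries. Its log2 change was -2.57 ± 0.86 (95% interval -4.39 to -0.75, adjusted p 0.113) with a pseudocount of 1, -2.97 with 0.5 and -1.52 with 5, so its size depends on how reads near 0 are treated. Without LD-high replicate 3, the library with 0 reads, it was -1.75.

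Spp1, which encodes the matrix protein osteopontin (chromosome 5, 104864137 to 104870069, plus strand), varied most between libraries of 1 group among the members above 100 normalized counts. It had 842, 1195 and 394 normalized counts in LD-low and 162, 782 and 189 in LD-high replicates 1, 2 and 3. LD-high replicate 2 lay inside the LD-low range and the other LD-high libraries lay below it. Spp1 had a log2 change of -1.35 ± 0.46 (95% interval -2.32 to -0.37, adjusted p 0.120). Among the fits that left out 1 library, it passed in the one without LD-high replicate 2, with -2.06 and an adjusted p of 0.00834. The other 5 gave values from -1.79 to -0.93, none past the threshold. With the replicate number as a term, a fit that called 9.38% of all genes, Spp1 passed (adjusted p 0.00129). The same fit called Lgals3 (adjusted p 0.0424), but the labels do not say that the numbers pair the samples.

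Lgals3, which encodes galectin-3, a lectin found in the cytosol, on damaged lysosomes and outside the cell (chromosome 14, 47987426 to 48005835, plus strand), had 211, 142 and 150.5 normalized counts in LD-low and 96.1, 111 and 98.5 in LD-high. All LD-high libraries were below all LD-low libraries, and LD-low replicate 1 was the highest. Between the groups the log2 change was -0.70 ± 0.20 (95% interval -1.13 to -0.26) with an adjusted p of 0.0749. DESeq2 on the recovered reads, which called 6.27% of all genes, called Lgals3 (-0.73, adjusted p 0.0394), and edgeR did not (adjusted p 0.0674). Other myeloid cells also express Lgals3. Neutrophil markers, summed, were at 1222, 1589 and 4563 normalized counts in LD-low replicates 1, 2 and 3 and at 0 in LD-high. Their part in the Lgals3 difference was not tested.

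Receptors and binding partners of the ligands moved in part. Of 10 tested genes of the insulin-like growth factor axis, 2 fell, 0 rose and 8 did not pass (median -0.04). The insulin receptor gene Insr fell by 0.58 ± 0.14 on the log2 scale, from 472, 384 and 552 to 338, 308 and 289 normalized counts (adjusted p 0.0409), and Igfbp4, a binding protein that sequesters the growth factor, fell by 0.50 ± 0.09, from 948 ± 33.4 to 668 ± 29.3 (adjusted p 0.0125). With a library left out, Insr was called in 1 of 6 fits (adjusted p up to 0.190) and Igfbp4 in 5 (0.0690 without LD-low replicate 3). Igf1r, the receptor for Igf1, had 604 ± 64.5 and 589 ± 45.5 normalized counts (adjusted p 0.911). Of 13 tested osteopontin receptor and beta-2 integrin genes, 1 rose, 1 fell and 11 did not pass (median 0.06). Cd44, a receptor for hyaluronan and osteopontin, fell by 1.48 ± 0.37 on the log2 scale, from 80.0, 56.3 and 84.5 to 14.9, 26.9 and 40.1 normalized counts (adjusted p 0.0422, and called in 1 of 6 such fits, with values up to 0.178). Tln1, which encodes talin, the cytoskeletal linker that activates integrins, rose by 0.38 ± 0.08 (adjusted p 0.0287, called in 2 of 6 such fits, highest 0.116). With quantile normalization, Insr, Cd44 and Tln1 did not pass (adjusted p 0.0714, 0.0859 and 0.0563). Of 6 other galectin-list genes, 0 passed in limma, 2 had an unadjusted p under 0.05, and edgeR called 0 and DESeq2 1. The 2 were Lgals8 and Lgals9, with log2 changes of 0.22 ± 0.07 and 0.21 ± 0.07 (adjusted p 0.0970 each), on the other side of 0 from Lgals3. Both were higher in every LD-high library, as were 12.7% of all tested genes. The other 4 tested galectin-list genes lay below 0, as Lgals3 did, and the list's median was -0.02.

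**Figure D2:**
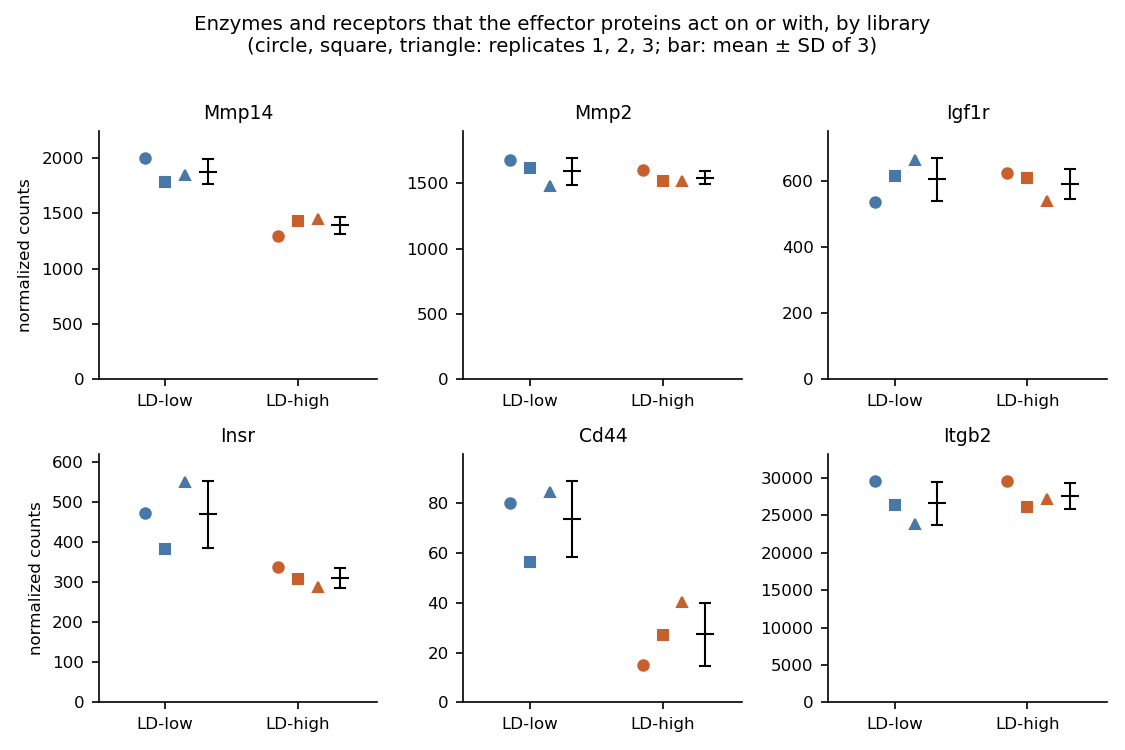
Normalized counts (y axis, linear, from 0) of 6 enzymes and receptors tied to the effector proteins, by library and group (x axis), with the mean ± SD of 3 libraries beside the points. Mmp14, Insr and Cd44 are lower in all 3 LD-high libraries than in any LD-low library, while Mmp2, Igf1r and Itgb2 overlap.

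Of the surface and membrane proteins, Cd52 was the one that passed. Cd52 (chromosome 4, 133638363 to 133650997, minus strand) had 1128, 1041 and 1102 normalized counts in LD-low and 886, 828 and 753 in LD-high replicates 1, 2 and 3. The lowest LD-low library was above the highest LD-high library, and within LD-low the SD was 4.05% of the mean. Cd52 fell by 0.41 on the log2 scale (95% interval -0.61 to -0.21) with an adjusted p of 0.0291, and every left-out library kept the direction (-0.46 to -0.35). The call was lost without LD-low replicate 1 (adjusted p 0.0671), 2 (0.0812) or 3 (0.119) and without LD-high replicate 2 (0.0651) or 3 (0.102). In the annotation Cd52 shares 172 bases of exon with Aim1l on the opposite strand. The library kit does not mark strand, so reads there cannot be assigned to 1 gene. Cd52 is also expressed by other white blood cells, and neutrophil and monocyte markers were lower in LD-high. Their part in the Cd52 difference was not tested.

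Itgax, the CD11c integrin chain that pairs with the beta-2 chain to bind complement fragments (chromosome 7, 135273061 to 135294171, plus strand), had 458, 363 and 358 normalized counts in LD-low and 427, 286 and 280.5 in LD-high. Replicate 1 was the highest in both groups, and LD-high replicate 1 lay above LD-low replicates 2 and 3. Itgax had a log2 change of -0.27 ± 0.17 (95% interval -0.62 to 0.09, adjusted p 0.397). Its partner Itgb2, far more abundant, had 26613 ± 2881 and 27635 ± 1747 normalized counts (adjusted p 0.750).

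Ank, a membrane protein that exports pyrophosphate or its precursor (chromosome 15, 27396432 to 27524664, plus strand), had 1691, 1391 and 1526 normalized counts in LD-low and 1948, 1590 and 1670 in LD-high. The groups overlapped, since LD-high replicates 2 and 3 lay below LD-low replicate 1. For Ank the log2 change was 0.18 ± 0.10 (95% interval -0.03 to 0.38, adjusted p 0.328). Among 7 tested genes for handling phosphate and pyrophosphate, 0 rose, 1 fell and 6 did not pass (median 0.13). The phosphate importer gene Slc20a1 fell by 0.53 ± 0.13 on the log2 scale, from 790, 921 and 934 to 497.5, 628 and 718 normalized counts (adjusted p 0.0359). It was called in 2 of the 6 fits that left out a library (up to 0.157), and not with quantile normalization (0.0606). Enpp1, which makes pyrophosphate from nucleotides, had a log2 change of 0.18 ± 0.15 (adjusted p 0.533).

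Gpnmb, a transmembrane glycoprotein of lysosomes and the cell surface known from lipid-laden macrophages (chromosome 6, 48986517 to 49020928, plus strand), was too low to test. It had 26, 1 and 7 reads in LD-low and 2, 2 and 0 in LD-high, or 18.2, 1.08 and 6.50 against 1.49, 2.24 and 0 normalized counts. Only LD-low replicates 1 and 3 were above 3 reads, and LD-low replicate 2 lay within the LD-high range. LD-low replicate 1 held most of the LD-low reads, and no difference between the groups can be read at this depth. Genes of the MiT transcription factors that are known to drive Gpnmb, with their regulators, gave 1 call: 1 of 10 tested rose, 0 fell and 9 did not pass (median 0.19). Fnip2, a folliculin partner, rose by 0.49 ± 0.10 (adjusted p 0.0245, and called in 3 of the 6 fits that left out a library, with values up to 0.115), and Mitf had 494 ± 67.2 and 469 ± 30.2 normalized counts (adjusted p 0.819).

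The other genes of the disease-associated state also moved in part. Of 31 tested, 1 rose, 6 fell and 24 missed the threshold (median -0.06). Over all tested genes, 1.53% were called higher and 1.82% lower. The list was compiled with results of these libraries known. The rise was Cd63, a tetraspanin of late endosomes. The falls on the log2 scale were Ch25h, which makes 25-hydroxycholesterol (-1.85 ± 0.31), the oxidase subunit Cybb (-1.45 ± 0.19), the inhibitory receptor Lilrb4 (-0.99 ± 0.17), the lipase Lpl (-0.99 ± 0.19), the phagocytic receptor Axl (-0.91 ± 0.13) and the lectin receptor Clec7a (-0.54 ± 0.09). Ch25h had 121, 131 and 76.2 normalized counts in LD-low and 34.3, 32.5 and 21.7 in LD-high (adjusted p 0.00711). Lilrb4 had 295, 308.5 and 242 against 135, 159 and 129 (adjusted p 0.00713), and reads of near-identical members of its gene family could not be told apart. Neither of these overlapped between groups. Of the 31, 7 were higher and 10 lower without overlap, against 12.7% and 11.7% of all tested genes. Axl, Cybb, Lilrb4 and Cd63 were called in all 6 fits without 1 library. Ch25h was lost without LD-low replicate 2 (adjusted p 0.0550), Clec7a without the same library (0.0571) and Lpl without LD-high replicate 3 (0.0571). By comparison the 2 called members, Timp2 and Cd52, were each called in 1 of the 6 fits.

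**Figure D3:**
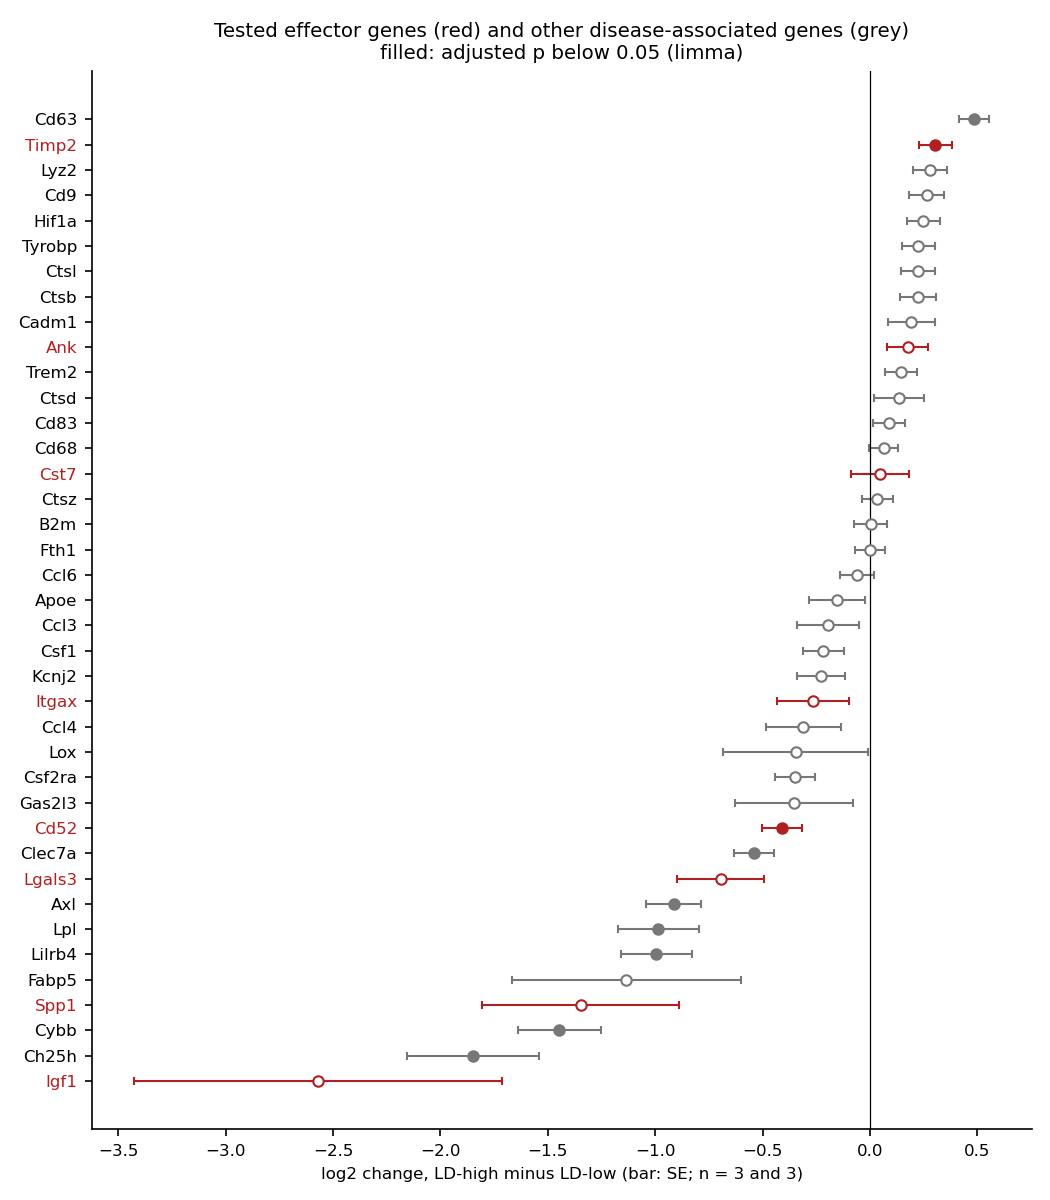
Log2 change with its SE (x axis, LD-high minus LD-low, 3 libraries each) for the 8 tested effector genes (red) and 31 other tested genes of the disease-associated state (grey), ordered by value (y axis), with filled points for an adjusted p under 0.05. Timp2 at 0.30 and Cd52 at -0.41 are the filled red points, and the widest bars belong to Igf1 and Fabp5.

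The genes most like each called member were sought among 10182 other genes whose mean reached 50 normalized counts, by the root mean square difference of log2 values over the 6 libraries after centring each gene on its own mean. Nearest to Timp2 were H3f3a, a histone variant gene (difference 0.0164), D15Ertd621e (0.0254) and Rgs10, a regulator of G protein signalling known from microglia (0.0258). Their log2 changes were 0.32 ± 0.08, 0.28 ± 0.07 and 0.28 ± 0.07, in that order, and H3f3a and Rgs10 passed (adjusted p 0.0355 and 0.0429) while D15Ertd621e did not (0.0522). Each was called in 1 of the 6 fits that left out a library. H3f3a also missed the threshold with quantile normalization (0.0541) and with the GC correction (0.0530), and Rgs10 with the transcript length correction (0.0657). Nearest to Cd52 were 5830418K08Rik (0.0270), 1700008J07Rik (0.0380) and Sclt1 (0.0492), with log2 changes of -0.39 ± 0.13, -0.41 ± 0.22 and -0.48 ± 0.15, none of which passed (adjusted p 0.115, 0.318 and 0.106). Likeness here rests on 6 libraries and on the difference between the groups.

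Over the whole series, library totals ran from 15895576 to 38489448 reads. The microglial markers P2ry12, Tmem119 and Cx3cr1 were abundant in both groups, as the labelled cell type requires. Mean normalized counts, LD-low before LD-high, were 200733 ± 5127 and 200006 ± 12648 for P2ry12 (SD, n = 3 each), while Tmem119 had 196973 ± 19614 and 183702 ± 10334, and Cx3cr1 had 142107 ± 8803 and 113674 ± 21011, and none of these 3 passed in limma or edgeR. DESeq2 called Cx3cr1 (log2 change -0.32, adjusted p 0.0306), which in limma had -0.34 ± 0.11 and an adjusted p of 0.115. Markers of other cells moved with the groups. All 7 listed neutrophil markers had 0 reads in every LD-high library and summed to 1222, 1589 and 4563 normalized counts in LD-low replicates 1, 2 and 3, and 4 of 7 listed monocyte markers were at 0 in LD-high. Cd52, Lgals3 and Igf1 were lower in the same direction. Within LD-low, Lgals3 and Cd52 were highest in replicate 1, which had the lowest neutrophil sum, and higher in replicate 3, which had the highest sum, than in replicate 2. Dendritic cell markers, which matter for Itgax, summed to 472 to 537 in LD-low and 392 to 406 in LD-high, mostly from Itgae. Of 4 tested, 2 lay above 0 and 2 below, and 0 passed in limma, with 1 at an unadjusted p under 0.05. Of the 4, 0 were called by edgeR or DESeq2. Border macrophage markers summed to 18256 to 19932 and 16990 to 22421, mostly from Stab1, and 7 of 8 tested were below 0 (median -0.52), with 0 past the threshold in limma, edgeR or DESeq2 and 2 at an unadjusted p under 0.05. Of the 12 markers of T, NK and B cells, 2 were listed, Cd79a and Cd79b, and they summed to between 655 and 764 in all 6 libraries. Between the groups, choroid plexus markers ran in the direction of Timp2, at 959, 366 and 1814 in LD-low and 5639, 1725 and 5537 in LD-high replicates 1, 2 and 3. Within LD-low their sum was highest in replicate 3 and Timp2 in replicate 1, and within LD-high both were highest in replicate 1. Oligodendrocyte markers summed to 4641 to 4896 and 5458 to 6013, also in the direction of Timp2. Vascular and mural markers summed to 1381 to 1808 and 1651 to 2104, mostly from Pecam1, and astrocyte and neuron markers to 6476 to 7814 and 7955 to 8878, mostly from Slc1a3. Of 4 tested vascular and mural genes, 0 passed in limma, and edgeR and DESeq2 each called 1. Flt1, Gfap and Aqp4 were lower in LD-high without overlap, and Kdr, Slc1a3 and Snap25 higher. Of these, Gfap, Aqp4 and Snap25 were too low to test. Beyond these values, the part of such cells in the results was not tested.

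**Figure D4:**
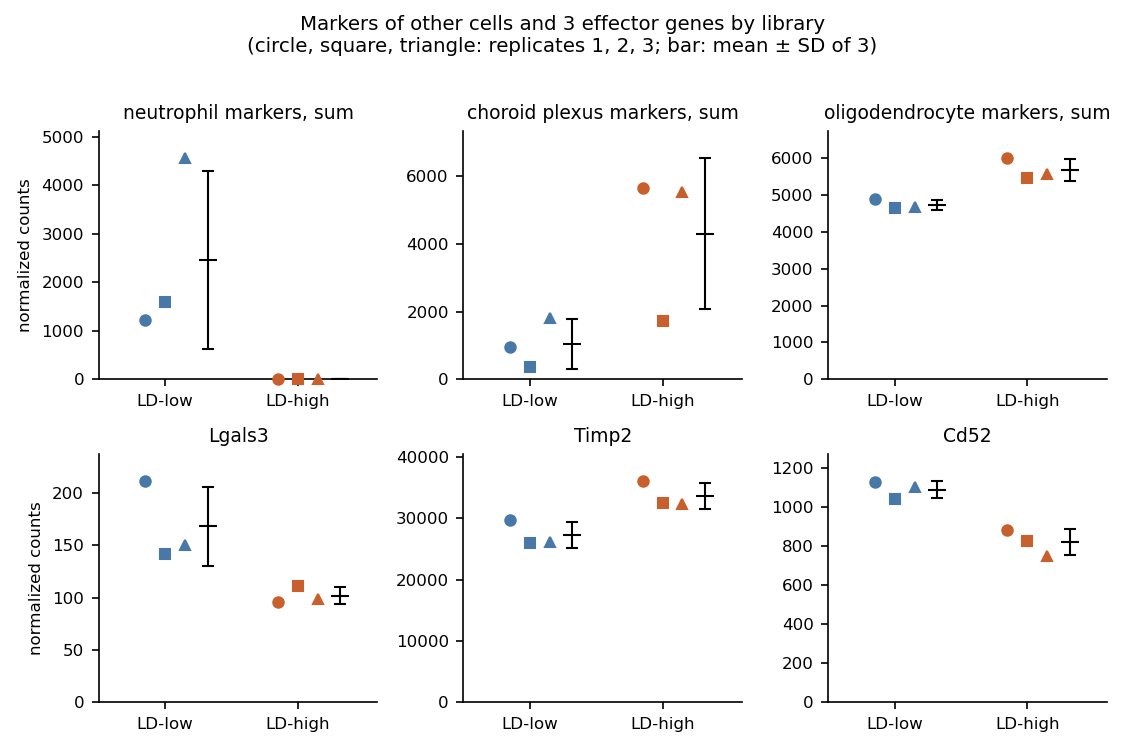
Summed normalized counts of neutrophil, choroid plexus and oligodendrocyte markers (top) and normalized counts of Lgals3, Timp2 and Cd52 (bottom) by library and group, y axes linear and x axis the group, with the mean ± SD of 3 libraries beside the points. The neutrophil sum is 0 in all LD-high libraries and highest in LD-low replicate 3. Lgals3 and Cd52 are highest in LD-low replicate 1 and lowest of that group in replicate 2.

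**Figure D5:**
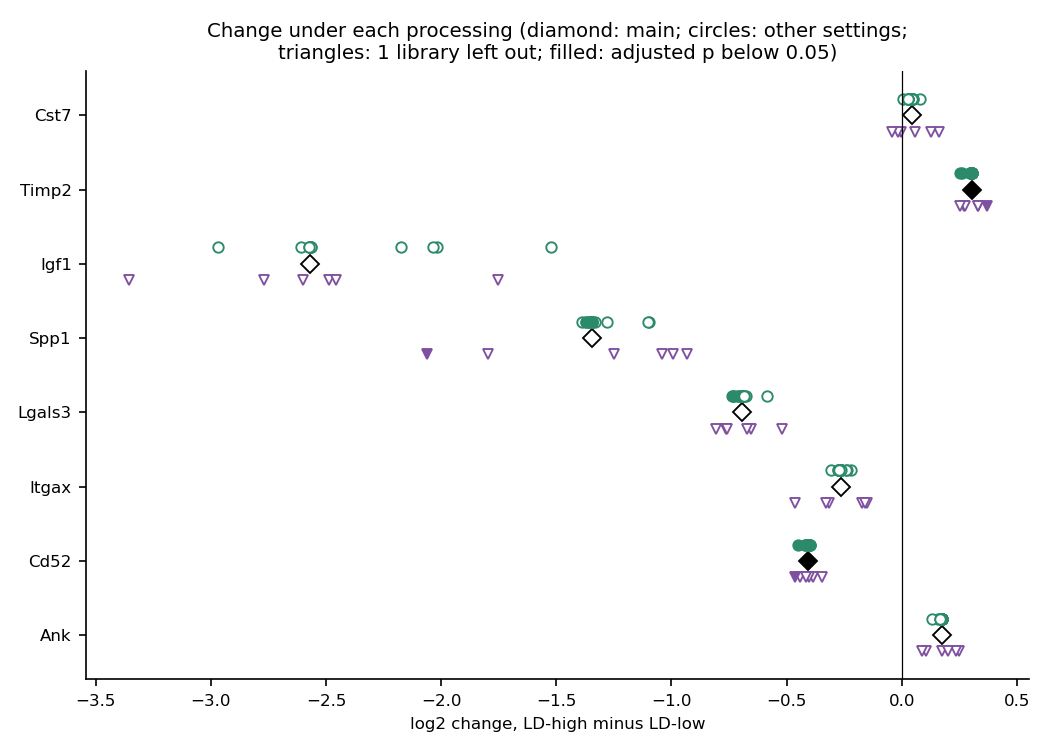
Log2 change (x axis, LD-high minus LD-low) of the 8 tested effector genes (y axis) in the main fit (diamonds), under other settings (circles) and with 1 library left out (triangles), filled where the adjusted p was under 0.05. Cst7 is the gene whose points fall on both sides of 0, and Igf1 and Spp1 spread the widest.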

How the data were processed

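RNA of sorted microglia was sequenced in 3 LD-low and 3 LD-high libraries after Smart-seq amplification and tagmentation, per the labels' protocols. The submitters' processing notes name FastQC 0.11.4, STAR 2.5.1b, the mm9 build and DESeq2. The series' design text adds that STAR produced the raw counts. For the annotation and strand setting, the sources used here give nothing. What the authors deposited is a signal per gene, raw counts scaled by a size factor for each library. All values (100%) came out as whole reads within 0.01 reads. Of the listed genes, 22 carry a date in place of a symbol and were left unnamed.

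The test was limma 3.58.1 (R 4.3.3) fitted to log2 of the normalized count plus 1, with its trend option, for genes with at least 10 in at least 3 libraries, without a term for the replicate number. P-values were 2-sided and adjusted over all 11624 genes. A fold on this scale understates the change of low genes. Count tests were edgeR 4.0.16 (quasi-likelihood, 377 genes called) and DESeq2 1.42.0 (729 genes). Coordinates and transcript lengths came from GENCODE vM1 (NCBIM37, mm9); 89.8% of tested genes had a length. Intervals cover the spread between libraries, and the floor of 3 reads covers counting error only, since amplified reads carry no molecular identifiers.

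Named were the 9 members, the called genes and the smallest p of each fixed list, 8 direct partners, and the 3 genes most like each called member. The members and lists were chosen with earlier results of these data known.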

Additional observations from a re-analysis of the deposited data

How the results depend on the processing

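The count of called genes, 390 in limma, was 252 with quantile normalization, 15 without the mean-variance trend, 729 with DESeq2 and 52 to 421 with 1 library left out. Of the 8 tested members, 2 were called, and 0 without the trend (4 had an unadjusted p under 0.05), 0 to 1 with 1 library left out (0 without LD-low replicate 2 or 3 or LD-high replicate 3, where 4, 5 and 4 had an unadjusted p under 0.05). With equal totals the split of called genes was 118 higher and 233 lower, against 178 and 212, while Timp2 stayed higher (0.26) and Cd52 lower (-0.45).

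Whether the replicate numbers pair the samples is not given, and the check did not settle it. Across genes, deviations of same-numbered libraries correlated at 0.16, 0.13 and 0.06, and those of differently numbered libraries at -0.13 to -0.02. Every library thus correlated best with its own number, but weakly. The last of the same-numbered values was under 0.1, and the main fit did not pair the samples. With the replicate number as a block, 1090 genes (9.38%) and 4 members were called, adding Spp1 (adjusted p 0.00129) and Lgals3 (0.0424); with the replicate block and the length correction 1180 genes and 4 members, and with the replicate block and the GC correction 990 genes and 3 members.

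Directions turned only for genes near 0 that did not pass. With 1 library left out, Cst7 lay between -0.0436 and 0.16, Ctsc between -0.0853 and 0.12, Igf1r between -0.117 and 0.0369, Itgb2 between -0.0186 and 0.137 and Mitf between -0.176 and 0.0215. Ctsc was -0.069 with quantile normalization, -0.0264 with equal totals and -0.0129 with the GC correction, with or without the replicate block, and Itgb2 was -0.003 with quantile normalization. The causes of these turns were not tested. The other alternatives run kept the direction of the other named genes refitted. The depth limits Gpnmb and Igf1, at 0 to 28 reads per library.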
